A study of Rattus norvegicus with 30 samples.

Results

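The genes described here encode peroxisomal proteins: 38 genes chosen by name. They comprise 12 peroxins, 6 proteins of the peroxisomal membrane or long listed with them, and 20 enzymes and other proteins, mostly of the interior. All 38 were found among the 14217 genes named on the Affymetrix rat expression array, each read from its brightest probe set, and 36 of them were among the 8531 brighter genes that were tested. Peroxins are the proteins that build the organelle: some insert membrane proteins, and others recognise folded enzymes in the cytosol, dock them at the membrane, pass them across and are recycled. The enzymes inside shorten very long and branched fatty acids and bile acid intermediates, break down urate and polyamines, and form hydrogen peroxide in doing so. In rat liver the organelle is abundant, and PPAR-alpha, the receptor through which fibrate drugs act, raises many of its fatty acid enzymes.

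The cells were purchased frozen hepatocytes of male Sprague Dawley rats, grown on collagen under a Matrigel overlay, and acetaminophen, an analgesic that is toxic to the liver in overdose, was added on the third day of culture. There were 6 groups of 5 arrays: 1% DMSO as vehicle, 500 µM acetaminophen and 5000 µM acetaminophen, each harvested at 24 h and at 48 h. Each array held RNA from a separate culture well. The number of rats behind the cells is not given in the sources used here, so p-values describe how wells varied, and animals were not compared.

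Expression values are linear MAS5 signals, differences are on the log2 scale, and "called" means an adjusted p under 0.05 in limma (Benjamini-Hochberg, all tested genes together). Of the hepatocyte markers, 6 of 7 were on the array, all 6 were tested, and their summed signal lay between 293021 and 409993 on every array. The 7 Kupffer cell and leukocyte markers on the array, of which Cd68, Cd14 and Lyz2 were bright enough to be tested, summed to 19641 to 22540 at 5000 µM and 24 h, below the 22731 to 30396 of vehicle, and to 20835 to 22931 at 5000 µM and 48 h, below the 24365 to 28432 of vehicle. The 4 cholangiocyte markers on the array, nearly all of it Epcam, summed to 13094 to 14443 in vehicle at 48 h, above the 10810 to 11459 at 500 µM and the 11821 to 12918 at 5000 µM. The defining Clec4f, Ptprc, Csf1r, Krt19 and Krt7 lay below the tested range, and the part of these cells in the results was not tested. Stellate cell (2018 to 3236) and endothelial (876 to 1675) sums were low on every array. The 3'/5' ratio of beta-actin, a measure of RNA integrity in which a higher value means more signal lost from the 5' end, was 1.86 ± 0.12 (log2, SD, n = 5) at 500 µM and 48 h against 1.24 ± 0.11 in vehicle (exact two-sided permutation test, p = 0.00794, adjusted 0.0198). These groups did not overlap, so in that comparison the dose and the ratio cannot be told apart, and values with the ratio as a covariate are given beside the results of that comparison. The ratio at 5000 µM and 24 h was 1.37 ± 0.22 against 1.78 ± 0.24 in vehicle, and at 5000 µM and 48 h it was 1.21 ± 0.05, close to vehicle.

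At 48 h more of the peroxisomal enzymes were called higher than lower at each dose. For 500 µM the dose and the 3'/5' ratio cannot be told apart there. At 24 h and the high dose, about as many enzymes were called higher as lower. At 500 µM and 24 h, 9 of 36 tested members were called, all higher, where 2.86% of all tested genes were called (1.65% higher, 1.21% lower). None was called lower, and 2 were lower at an unadjusted p under 0.05. Fitting only the 2 groups compared kept 4 of the 9, where 1.17% of all tested genes were called. At 5000 µM and 24 h, 8 rose and 7 fell, where 38.1% of all tested genes were called (18.6% higher, 19.6% lower). At 500 µM and 48 h, 13 rose and 3 fell, where 42.6% of all tested genes were called (24% higher, 18.6% lower); with each array centred on its median, 10 rose and 5 fell. Entering the 3'/5' ratio kept 7 of these 16 calls, lost 7, turned the sign of 2 and called 1 further member (Acot4), which made 8, where 3.97% of all tested genes were called. The high dose at 48 h raised 14 and lowered 3, where 32.6% of all tested genes were called (14.6% higher, 18% lower), and with median centring 15 rose and 1 fell. The share of members called was thus 25% against 2.86%, 41.7% against 38.1%, 44.4% against 42.6% and 47.2% against 32.6% in the same order. The share at 5000 µM and 24 h and that at 500 µM and 48 h were near the background. No such background is given for the counts with median centring, here or below, so they show only how far the calls moved. The members were chosen with earlier results of these data known, so these shares are not independent of them. In RNA from whole wells, fewer cells of a type and less RNA per cell cannot be told apart.

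**Figure D1:**
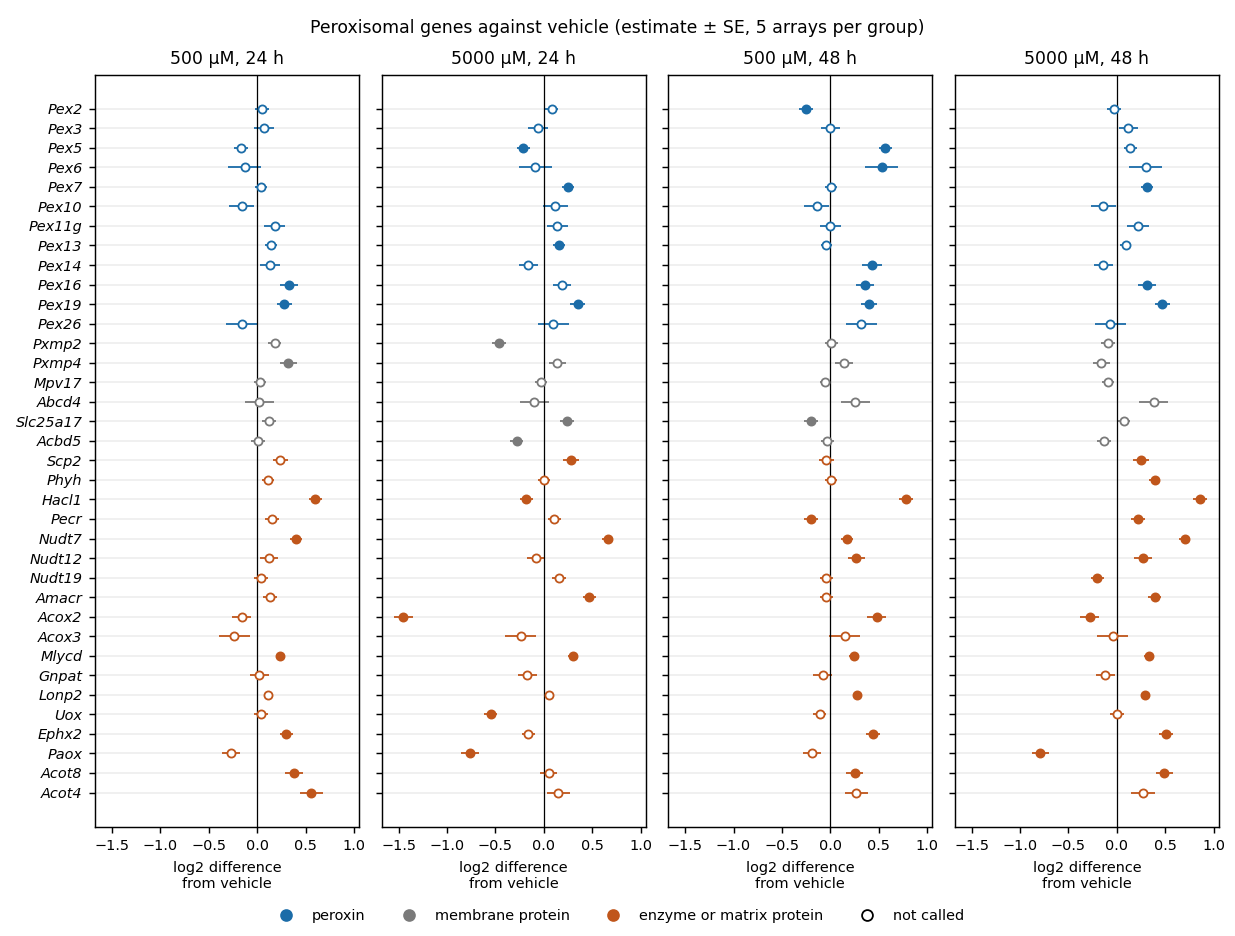
Log2 difference from vehicle (horizontal axis) of the 36 tested genes (vertical axis), 1 panel per dose and time; points are limma estimates with their SE, 5 arrays per group, filled where called, coloured by class. Acox2 at 5000 µM and 24 h lies farthest to the left, at -1.45, and Hacl1 at 5000 µM and 48 h farthest to the right, at 0.86.

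The share of each class that was called varied with dose and time. At 5000 µM and 48 h, 11 of 18 tested enzymes rose and 3 fell, with a class median of 0.27, whereas 3 of 12 peroxins rose, with a median of 0.13. In that comparison 12 of the 18 enzymes had no overlap between the 5 dosed and the 5 vehicle arrays, and 25.4% of all tested genes had none. No peroxin was called lower there, nor was any at an unadjusted p under 0.05. None of the 6 membrane proteins was called in limma, 1 of them was higher at an unadjusted p under 0.05, and the class median was -0.09. The median over all tested genes was -0.01. At 500 µM and 24 h the enzymes gave 6 of the 9 calls, the peroxins 2 and the membrane proteins 1. With the low dose at 48 h, 6 of 12 peroxins and 9 of 18 enzymes were called (50% each), and 1 membrane protein, where 42.6% of all tested genes were called. With the 3'/5' ratio as covariate, the peroxins called there were Pex5 and Pex19. The enzymes called with it were Hacl1, Nudt7, Mlycd, Lonp2, Ephx2 and Acot4, where 3.97% of all tested genes were called. For the high dose at 24 h the called shares were 33.3% of the peroxins, 50% of the membrane proteins and 44.4% of the enzymes. Of all tested genes 38.1% were called there. The difference between the classes was not tested.

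**Figure D2:**
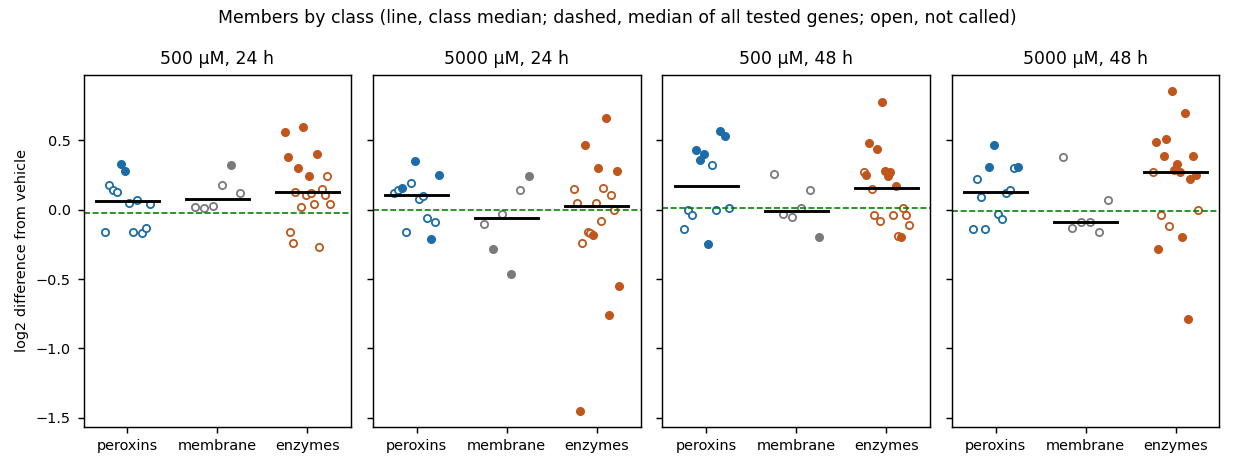
Log2 difference from vehicle (vertical axis) of each tested gene by class (horizontal axis), 1 panel per dose and time; filled points were called, solid lines are class medians and dashed lines the median of all tested genes. The enzyme median is 0.27 at 5000 µM and 48 h and 0.03 at 5000 µM and 24 h.

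Across the 4 comparisons of a dose with vehicle, 8 members were never called: Pex3, Pex10, Pex11g, Pex26, Mpv17, Abcd4, Acox3 and Gnpat. Of the others, 17 were called only higher, 6 only lower and 5 in both directions (Pex5, Slc25a17, Hacl1, Pecr and Acox2). Pex19, Nudt7 and Mlycd were called higher in all 4, and Pex16, Hacl1, Ephx2 and Acot8 in 3. Both doses at one time share their vehicle arrays, so their values are not independent. Counts over the 4 comparisons together were not made for all tested genes, so no background stands beside them. In the single comparisons 2.86% to 42.6% of all tested genes were called.

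Of the 3 peroxins that insert membrane proteins, Pex19 was called in all 4 comparisons with vehicle, Pex16 in 3 and Pex3 in none. Pex19, the cytosolic chaperone and import receptor for peroxisomal membrane proteins, had signals of 1688, 1784, 1868, 1943 and 2063 in vehicle and 2201, 2218, 2301, 2535 and 2657 at 5000 µM and 24 h. At 48 h it had 1691, 1701, 1838, 1919 and 2059 in vehicle and 2414, 2436, 2549, 2596 and 2718 at 5000 µM. Every array of either dose lay above every vehicle array of its time. The log2 difference was 0.28 ± 0.08 (SE; adjusted p = 0.0389) at 500 µM and 0.35 (adjusted p = 5.09e-04) at 5000 µM after 24 h, and 0.40 (adjusted p = 1.44e-04) and 0.47 (adjusted p = 1.43e-05) after 48 h. With the 3'/5' ratio as covariate the value at 500 µM and 48 h was 0.44 (adjusted p = 0.0192), and that at 500 µM and 24 h was no longer called (adjusted p = 0.0637). Pex16, the membrane receptor that recruits Pex3 and its cargo, was higher by 0.33, 0.36 and 0.31 at 500 µM and 24 h, 500 µM and 48 h, and 5000 µM and 48 h, with overlapping arrays. With the covariate its value at 500 µM and 48 h was 0.32 (adjusted p = 0.178). A dimmer Pex16 probe set gave -0.08, -0.14 and 0.03 in these comparisons, none called, and the Pex16 calls were lost when probe sets were averaged. Pex3, the docking factor for Pex19, was not called, with values between -0.06 and 0.12.

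Pex5, the receptor for enzymes with the C-terminal targeting signal, gave the largest peroxin change. At 48 h its signals were 2506, 2598, 2732, 2801 and 2843 in vehicle, 3806, 3907, 3939, 3984 and 4397 at 500 µM, and 2810, 2849, 3037, 3038 and 3151 at 5000 µM. All arrays at 500 µM stood above all others of that time, while the 5000 µM arrays overlapped vehicle. The difference at 500 µM was 0.57 ± 0.07 (SE; adjusted p = 1.23e-06), and 0.34 (adjusted p = 0.0217) with the 3'/5' ratio as covariate. A dimmer Pex5 probe set gave -0.25 (adjusted p = 0.458), and the mean of both gave 0.16 (adjusted p = 0.284), so the rise rests on 1 probe set. At 24 h the signals were 3611, 3734, 3810, 4172 and 4272 in vehicle, 3070, 3154, 3645, 3751 and 3786 at 500 µM, and 2989, 3243, 3260, 3392 and 4113 at 5000 µM. Both doses overlapped vehicle, and the fall of 0.21 called at 5000 µM was lost with the covariate (-0.06, adjusted p = 0.588). Vehicle itself fell between 24 and 48 h by 0.54 ± 0.07 (SE; adjusted p = 0.0102 with the covariate, with a value of -0.34), and its 3'/5' ratio fell by 0.53 over the same time. The dimmer probe set gave 0.05 (adjusted p = 0.909) here, so this fall too rests on 1 probe set.

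Pex7, the receptor for the N-terminal targeting signal, rose at 5000 µM by 0.25 ± 0.06 (SE) at 24 h and by 0.31 ± 0.06 at 48 h, and both calls remained with the covariate. At 500 µM it was not called, at 0.04 and 0.01. Of the docking proteins, Pex14 rose at 500 µM and 48 h by 0.43 ± 0.10 (SE; adjusted p = 0.00148), with signals of 2848 to 4199 against 2055 to 2748 in vehicle, and was 0.22 (adjusted p = 0.414) with the covariate. Pex13 was called only at 5000 µM and 24 h, at 0.16, and not with the covariate. Of the RING proteins that ubiquitinate the receptors, Pex2 fell by 0.25 at 500 µM and 48 h, with -0.05 (adjusted p = 0.808) under the covariate, and Pex10 was not called. Pex6, an ATPase that pulls used receptors from the membrane, rose by 0.53 ± 0.17 (SE) at 500 µM and 48 h, with 0.19 (adjusted p = 0.722) under the covariate. Its membrane anchor Pex26 was 0.32 there and was not called. Pex11g, a factor of peroxisome division, lay between 0.00 and 0.22 without a call.

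Of the 6 membrane proteins, 3 were called at 5000 µM and 24 h, 1 at each time at 500 µM, and 0 at 5000 µM and 48 h. Pxmp2, a channel-forming protein of the peroxisomal membrane, fell at 5000 µM and 24 h, with signals of 7897, 8030, 8155, 8192 and 8280 against 9559, 11095, 11468, 11534 and 12334 in vehicle. No dosed array reached the lowest vehicle array, and the difference was -0.46 ± 0.07 (SE; adjusted p = 5.69e-06). At 48 h Pxmp2 was not called at 5000 µM, at -0.09. Acbd5, which tethers peroxisomes to the endoplasmic reticulum, fell by 0.28 at 5000 µM and 24 h (adjusted p = 0.00102) without overlap. Its value of -0.13 at 5000 µM and 48 h was not called, although signals of 9780 to 11125 lay below the 11194 to 11548 of vehicle. Pxmp4, a membrane protein of unsettled function, rose by 0.32 at 500 µM and 24 h with overlapping arrays and an adjusted p of 0.0468. A dimmer Pxmp4 probe set gave 0.33 (adjusted p = 0.059) there. At 5000 µM and 24 h the dimmer probe set was called in limma, at 0.31 (adjusted p = 0.00842), and the brighter one was not, at 0.14. Slc25a17, which carries coenzyme A and other cofactors into the organelle, was called higher by 0.24 at 5000 µM and 24 h and lower by 0.20 at 500 µM and 48 h. With the covariate these values were 0.09 (adjusted p = 0.281) and 0.03 (adjusted p = 0.889). Mpv17, known now as a protein of the mitochondrial inner membrane, and Abcd4, a lysosomal cobalamin transporter, were not called.

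The promoters of 4 enzymes are shown, chosen after their values were seen because their genes moved in unlike ways: Acox2 and Uox fell at the high dose at 24 h, Hacl1 rose at both doses at 48 h, and Nudt7 rose throughout. Each run is a RefSeq window of 250 bases before to 50 bases after a transcription start in build GRCr8, read 5′ to 3′ on the gene's strand. For Acox2 and Nudt7 that start lies inside the annotated gene, whose first base is 19090820 and 59034808. Capitals on either strand mark the CCAAT box, the GC box, spelled GGGCGG, or the core element of nuclear receptor sites, spelled AGGTCA.
Acox2: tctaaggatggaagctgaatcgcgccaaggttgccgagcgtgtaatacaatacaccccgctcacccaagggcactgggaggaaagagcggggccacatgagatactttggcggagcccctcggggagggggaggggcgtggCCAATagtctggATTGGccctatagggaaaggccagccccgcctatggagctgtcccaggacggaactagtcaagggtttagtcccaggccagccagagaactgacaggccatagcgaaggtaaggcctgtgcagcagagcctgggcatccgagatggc
Uox: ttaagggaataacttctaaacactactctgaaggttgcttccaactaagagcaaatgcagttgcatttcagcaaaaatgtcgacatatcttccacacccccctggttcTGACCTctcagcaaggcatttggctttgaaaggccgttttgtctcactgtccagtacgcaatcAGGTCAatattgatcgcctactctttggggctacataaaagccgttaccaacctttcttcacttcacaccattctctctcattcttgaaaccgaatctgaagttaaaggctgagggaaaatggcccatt
Hacl1: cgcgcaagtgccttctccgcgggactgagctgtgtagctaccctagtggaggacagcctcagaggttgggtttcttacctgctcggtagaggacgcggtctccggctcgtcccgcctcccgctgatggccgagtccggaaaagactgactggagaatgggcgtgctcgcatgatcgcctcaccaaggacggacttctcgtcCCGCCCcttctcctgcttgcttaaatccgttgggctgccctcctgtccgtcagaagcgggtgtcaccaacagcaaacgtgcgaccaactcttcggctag
Nudt7: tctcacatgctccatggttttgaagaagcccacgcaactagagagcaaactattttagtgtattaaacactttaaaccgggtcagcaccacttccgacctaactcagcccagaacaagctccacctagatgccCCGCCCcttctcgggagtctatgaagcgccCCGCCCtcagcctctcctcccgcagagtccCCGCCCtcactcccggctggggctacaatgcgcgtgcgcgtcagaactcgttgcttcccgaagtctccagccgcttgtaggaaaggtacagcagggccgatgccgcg
The Acox2 window at chr15:19090705-19091004 (plus strand) held CCAAT 2 times, and the Uox window at chr2:238146880-238147179 (plus strand) held AGGTCA 2 times. The Hacl1 window at chr16:6869361-6869660 (minus strand) held 1 GC box, and the Nudt7 window at chr19:59034638-59034937 (plus strand) held 3. Of the 38 members, 35 had a promoter in the RefSeq table. AGGTCA was found in 8 of these 35 (22.9%) against 15.7% of all 27457 promoters, GGGCGG in 25 (71.4%) against 34.9%, and CCAAT in 14 (40%) against 37.7%. Of the 7242 tested genes with a promoter, AGGTCA was present in 12.2%, GGGCGG in 63.9% and CCAAT in 38.3%. The spaced repeat AGGNCANAGGNCA, the form PPAR-alpha is known to bind, was in 0 of 35, in 0.412% of all promoters and in 0.359% of those of tested genes. A match is only a run of letters, and its absence concerns this window alone.

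Of the enzymes of alpha-oxidation, which removes a single carbon from phytanic acid, Hacl1 changed most. Hacl1, the lyase of this pathway, had signals of 8278, 10077, 10145, 10810 and 10873 in vehicle at 24 h, 13466, 15066, 15342, 15577 and 16263 at 500 µM, and 8281, 8330, 8795, 9377 and 9382 at 5000 µM. At 48 h it had 8028, 8296, 8428, 8434 and 9907 in vehicle, 13653, 13805, 14986, 15168 and 16569 at 500 µM, and 14974, 15054, 15819, 16119 and 16350 at 5000 µM. The low dose stood clear of vehicle at both times, and the high dose at 48 h only. The differences at 500 µM were 0.60 ± 0.07 (SE; adjusted p = 8.16e-07) at 24 h and 0.78 ± 0.07 (adjusted p = 1.55e-09) at 48 h, the latter 0.73 with the covariate. At 5000 µM Hacl1 was lower by 0.18 at 24 h (adjusted p = 0.0388, and 0.193 with the covariate) and rose by 0.86 ± 0.07 (adjusted p = 1.39e-11) at 48 h. Between the doses at 24 h it was lower at 5000 µM by 0.78 ± 0.07 (SE). Phyh, the hydroxylase before Hacl1 in the pathway, was called only at 5000 µM and 48 h, where it rose by 0.39 ± 0.06 (SE; adjusted p = 9.61e-06), with signals of 47892 to 58351 against 37883 to 45530 in vehicle.

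**Figure D3:**
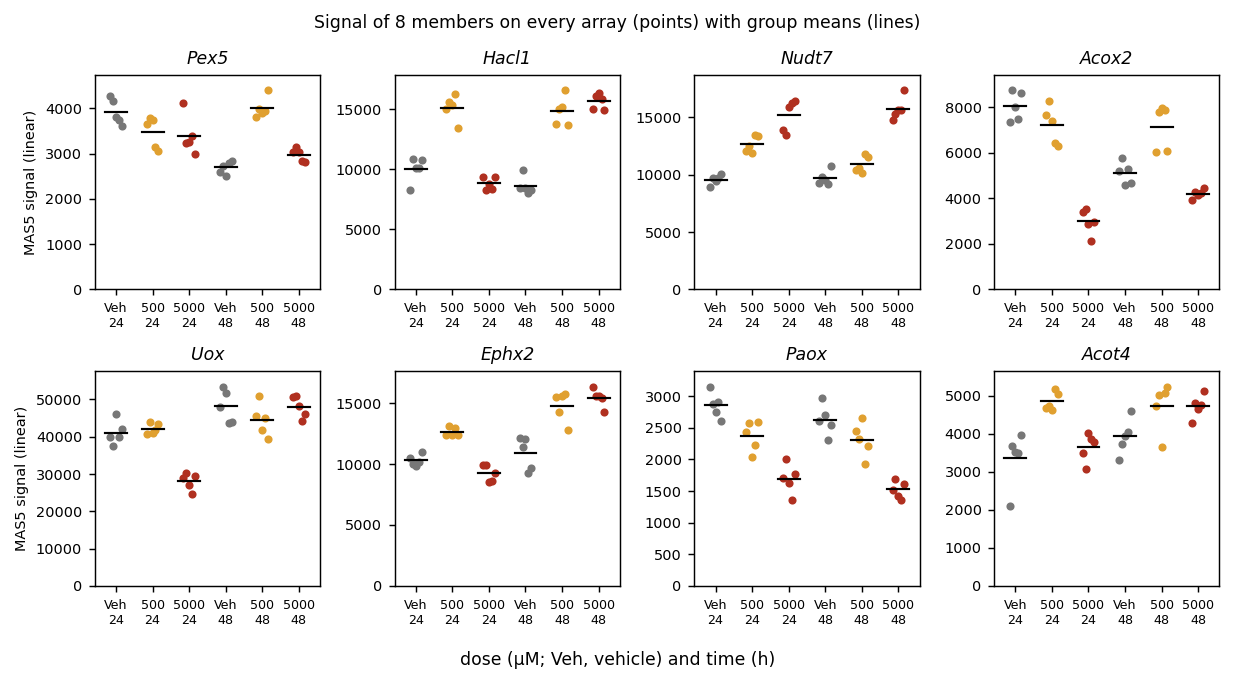
Linear MAS5 signal (vertical axis) of 8 genes on all 30 arrays by dose and time (horizontal axis); points are arrays and lines are means of 5. Hacl1 at 5000 µM lies at 8281 to 9382 at 24 h and at 14974 to 16350 at 48 h.

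Acox2, an acyl-CoA oxidase that acts in shortening the side chain of bile acid precursors, had the largest fall among the members. Its signals at 24 h were 7331, 7469, 8018, 8627 and 8736 in vehicle, 6317, 6437, 7386, 7671 and 8263 at 500 µM, and 2131, 2889, 2970, 3410 and 3534 at 5000 µM. At 48 h they were 4605, 4659, 5215, 5277 and 5771 in vehicle, 6054, 6084, 7786, 7874 and 7971 at 500 µM, and 3929, 4138, 4237, 4258 and 4469 at 5000 µM. The high dose lay below vehicle without overlap at both times, and the low dose above it at 48 h. The difference at 5000 µM was -1.45 ± 0.10 (SE; adjusted p = 1.55e-12) at 24 h and -0.28 ± 0.10 (adjusted p = 0.0412) at 48 h, where median centring gave -0.25 (adjusted p = 0.0623). The rise of 0.48 ± 0.10 (SE) at 500 µM and 48 h became 0.22 (adjusted p = 0.402) with the covariate. In vehicle Acox2 fell by 0.66 ± 0.10 (SE) between 24 and 48 h, and by 0.43 (adjusted p = 0.0353) with the covariate.

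Among the other enzymes of branched-chain and bile acid oxidation, Amacr, Scp2 and Acot8 were called higher in at least 1 comparison with vehicle and never lower. Amacr, the racemase that prepares these substrates for oxidation, rose at 5000 µM by 0.47 ± 0.07 (SE; adjusted p = 8.25e-07) at 24 h and by 0.39 ± 0.07 (adjusted p = 1.57e-05) at 48 h. Its signals of 5626 to 7135 and 5627 to 6220 lay above the 4137 to 5061 and 4246 to 4740 of vehicle. At 500 µM it was not called. Scp2, which gives a thiolase and a sterol carrier protein, was higher at 5000 µM by 0.28 at 24 h and 0.25 at 48 h with overlapping arrays. A second Scp2 probe set gave -0.11 (adjusted p = 0.126) and 0.43 (adjusted p = 5.29e-08) there. Acot8, a thioesterase for bile acid and other acyl-CoAs, rose by 0.38 and 0.25 at 500 µM and by 0.49 ± 0.09 (SE; adjusted p = 6.38e-05) at 5000 µM and 48 h, and was 0.05 at 5000 µM and 24 h. Its value at 500 µM and 48 h was 0.29 (adjusted p = 0.22) with the covariate. Acox3, a branched-chain acyl-CoA oxidase, was not called.

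Of the enzymes that hydrolyse coenzyme A and related nucleotides, Nudt7 gave the largest rise. Nudt7, which cleaves coenzyme A, had signals at 24 h of 8930, 9438, 9745, 9747 and 10088 in vehicle, 11939, 12052, 12513, 13389 and 13483 at 500 µM, and 13463, 13906, 15896, 16226 and 16420 at 5000 µM. At 48 h it had 9170, 9257, 9531, 9813 and 10734 in vehicle, 10194, 10402, 10623, 11533 and 11824 at 500 µM, and 14810, 15302, 15609, 15611 and 17357 at 5000 µM. Only the low dose at 48 h overlapped vehicle. The differences were 0.40 ± 0.06 (SE; adjusted p = 8.63e-05) and 0.66 ± 0.06 (adjusted p = 3.57e-10) at 24 h for the low and the high dose, and 0.17 ± 0.06 (adjusted p = 0.0259) and 0.70 ± 0.06 (adjusted p = 1.16e-10) at 48 h. With median centring the value at 500 µM and 48 h was 0.09 and was not called, and with the 3'/5' ratio as covariate it was 0.33 and was called. The high dose exceeded the low dose by 0.26 ± 0.06 (SE) at 24 h and by 0.53 ± 0.06 at 48 h. Nudt19, another coenzyme A hydrolase, was lower by 0.20 at 5000 µM and 48 h, and Nudt12, which hydrolyses NADH, rose by 0.27 at both doses at 48 h, with 0.07 (adjusted p = 0.793) at 500 µM under the covariate.

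Mlycd, malonyl-CoA decarboxylase, which is shared with mitochondria and cytosol, was called higher in each comparison. Its signals were 4759, 4935, 4949, 5216 and 5433 in vehicle at 24 h, and 5627, 5846, 5941, 6101 and 6378 at 500 µM. No array of either dose fell within the vehicle range of its time. The differences were small and alike, at 0.24 ± 0.05 (SE) and 0.30 ± 0.05 at 24 h and 0.24 ± 0.05 and 0.33 ± 0.05 at 48 h for the low and the high dose. With the covariate the value at 500 µM and 48 h was 0.26 (adjusted p = 0.0342).

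Acot4, a thioesterase of dicarboxylic and other acyl-CoAs, had signals of 2114, 3507, 3514, 3683 and 3964 in vehicle at 24 h, 4630, 4687, 4738, 5053 and 5178 at 500 µM, and 3083, 3506, 3788, 3867 and 4012 at 5000 µM. The low dose stood above both other groups of that time, and 1 vehicle array lay well below its group. The rise at 500 µM was 0.56 ± 0.12 (SE; adjusted p = 0.00503), and 0.41 without the low vehicle array, where it remained called. With only the groups compared in the fit it missed the threshold (adjusted p = 0.0528). At 48 h the signals were 3310, 3748, 3959, 4043 and 4616 in vehicle, 3650, 4730, 5017, 5083 and 5240 at 500 µM, and 4296, 4661, 4774, 4812 and 5140 at 5000 µM. These groups overlapped, and neither dose was called, at 0.27 each, although with the covariate the low dose was called at 0.54 (adjusted p = 0.0352). Acot4 has near relatives in a gene cluster, and signal from them was not tested. Pecr, an enoyl-CoA reductase, was lower by 0.20 at 500 µM and 48 h, with 0.05 (adjusted p = 0.762) under the covariate, and was higher by 0.22 at 5000 µM and 48 h.

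Of the oxidases outside lipid metabolism, Uox and Paox fell at the high dose, Uox at 24 h only. Uox, urate oxidase of the crystalline peroxisomal core in rodents, had signals at 24 h of 37405, 39836, 39890, 42206 and 45984 in vehicle, 40804, 40959, 41724, 43382 and 43885 at 500 µM, and 24629, 26953, 29024, 29553 and 30365 at 5000 µM. At 48 h it had 43788, 44063, 48049, 51663 and 53392 in vehicle, 39537, 41794, 44955, 45679 and 50960 at 500 µM, and 44362, 46196, 48355, 50573 and 50820 at 5000 µM. The high dose lay below every other array of the 24 h groups and within the vehicle range at 48 h. The difference at 5000 µM was -0.55 ± 0.07 (SE; adjusted p = 9.97e-08) at 24 h and 0.00 ± 0.07 (adjusted p = 0.993) at 48 h.

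Paox, the oxidase of acetylated polyamines, had signals at 24 h of 2605, 2752, 2883, 2914 and 3148 in vehicle, 2042, 2225, 2433, 2584 and 2591 at 500 µM, and 1365, 1635, 1713, 1769 and 2007 at 5000 µM. At 48 h it had 2312, 2551, 2611, 2697 and 2979 in vehicle, 1920, 2210, 2318, 2449 and 2653 at 500 µM, and 1361, 1425, 1524, 1619 and 1694 at 5000 µM. The high dose lay below vehicle and below the low dose at both times. The difference was -0.76 ± 0.09 (SE; adjusted p = 1.18e-07) at 24 h and -0.79 ± 0.09 (adjusted p = 8.02e-08) at 48 h. At 500 µM the values were -0.27 and -0.19 and were not called, although at 24 h the arrays did not overlap.

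Ephx2, the soluble epoxide hydrolase of cytosol and peroxisomes, had signals at 24 h of 9876, 9978, 10128, 10520 and 10979 in vehicle, 12343, 12386, 12409, 12976 and 13156 at 500 µM, and 8566, 8638, 9260, 9894 and 9935 at 5000 µM. At 48 h it had 9270, 9645, 11416, 12034 and 12118 in vehicle, 12774, 14293, 15472, 15579 and 15787 at 500 µM, and 14302, 15441, 15552, 15560 and 16335 at 5000 µM. As with Hacl1, the low dose was above vehicle at both times and the high dose at 48 h only. The differences at 500 µM were 0.30 ± 0.07 (SE; adjusted p = 0.0106) and 0.44 ± 0.07 (adjusted p = 1.03e-05), the latter 0.36 (adjusted p = 0.0253) with the covariate. At 5000 µM they were -0.16, not called, and 0.51 ± 0.07 (adjusted p = 4.53e-07). Lonp2, the protease of the peroxisomal interior, rose at 48 h by 0.28 ± 0.04 (SE) at 500 µM and 0.29 ± 0.04 at 5000 µM without overlap, and was 0.11 and 0.05 at 24 h. With the covariate its value at 500 µM and 48 h was 0.24 (adjusted p = 0.0185).

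The first steps of ether lipid synthesis gave no call. Gnpat, the acyltransferase, lay between -0.17 and 0.02, although a dimmer probe set was called at 0.56 (adjusted p = 0.0367) at 500 µM and 48 h. Agps acts after Gnpat, with an alcohol that Far1 supplies. The geometric mean signals of Agps and Far1 were 196.6 and 19.16, below the 469 of the dimmest tested gene. Without the filter neither was called in any comparison with vehicle.

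The effect of 5000 µM differed between 48 and 24 h for 10 of the 36 members, 9 more positive and 1 more negative at 48 h, where 16.4% of all tested genes were called (7.74% higher, 8.66% lower). The largest differences were 1.17 ± 0.15 (SE; adjusted p = 1.36e-06) for Acox2 and 1.04 ± 0.10 (adjusted p = 7.01e-09) for Hacl1. Ephx2 followed at 0.67 ± 0.10 (adjusted p = 1.20e-05), Uox at 0.55 ± 0.10 (adjusted p = 1.51e-04) and Acot8 at 0.45 ± 0.13 (adjusted p = 0.0154). Phyh, Pxmp2, Pex5 and Lonp2 were also more positive at 48 h, and Nudt19 more negative. After adjustment for the 3'/5' ratio, where 9.62% of all tested genes were called, 9 of these 10 remained, all but Pex5 (0.22, adjusted p = 0.161). Nudt7 and Paox were called against vehicle in the same direction at both times and not in this difference, with values of 0.04 and -0.03. The effect of 500 µM differed between the times for 9 members, 4 more positive and 5 more negative at 48 h, where 36.6% of all tested genes were called (22.1% higher, 14.5% lower), and with median centring 2 and 9. With the covariate 0 were called in limma, where 0.0352% of all tested genes were, and 2 had an unadjusted p under 0.05. Without replicate 5 of the 500 µM, 24 h group 5 were called.

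**Figure D4:**
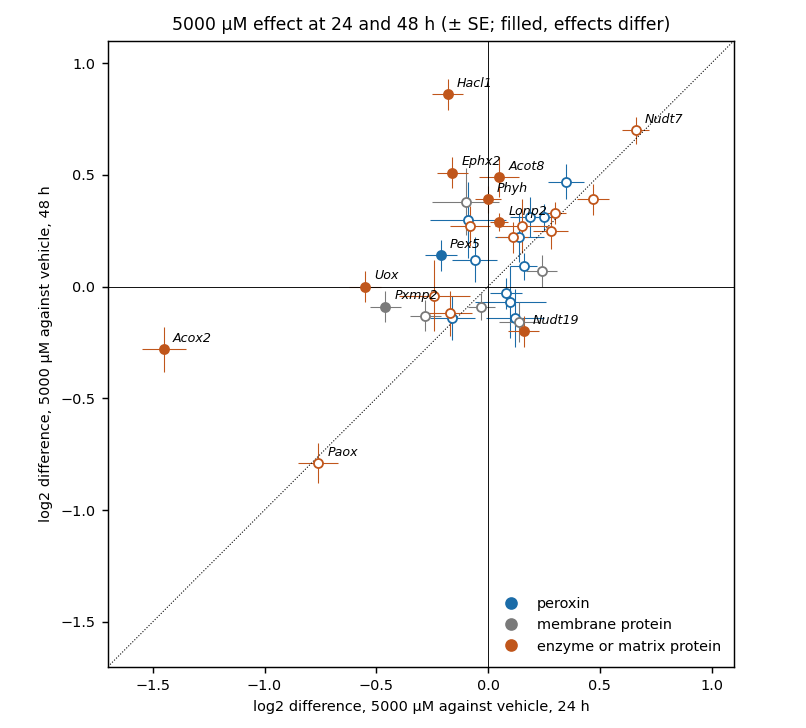
Log2 difference of 5000 µM from vehicle at 24 h (horizontal axis) and 48 h (vertical axis) for the 36 tested genes with their SE; filled points are the 10 genes whose effects differed between the times, and the dotted line marks equal effects. Acox2 (-1.45 and -0.28), Uox (-0.55 and 0.00) and Hacl1 (-0.18 and 0.86) lie above the line, and Paox and Nudt7 close to it.

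In vehicle, 8 members were called between 24 and 48 h, 4 higher and 4 lower, where 32.5% of all tested genes were called (13.4% higher, 19% lower), and with median centring 9 and 2. Pecr rose by 0.31 and Pex7 by 0.28, and Pex5 and Acox2 gave the largest falls. The 3'/5' ratio of vehicle fell from 1.78 to 1.24 (exact two-sided permutation test, p = 0.00794, adjusted 0.0198). Its arrays did not overlap (1.492 to 1.989 at 24 h, 1.09 to 1.341 at 48 h), so time and ratio cannot be told apart here. With the ratio as a covariate only Pex5 and Acox2 remained, where 5.16% of all tested genes were called. Between the doses at 24 h, 13 members were called at 5000 against 500 µM, 3 higher and 10 lower, where 31.2% of all tested genes were called (16.8% higher, 14.3% lower). The largest falls were Acox2 at -1.29 ± 0.10 (SE), Hacl1 at -0.78, Pxmp2 at -0.64 and Uox at -0.59. Between the doses at 48 h, 15 were called, 9 higher and 6 lower, where 47.6% of all tested genes were called (19.4% higher, 28.2% lower). With median centring these were 15 and 4, and with the covariate 5 were called, where 20.9% of all tested genes were. The 3'/5' ratio of 1.21 at 5000 µM and 48 h lay below the 1.86 at 500 µM and 48 h. These arrays did not overlap (1.149 to 1.287 against 1.735 to 1.997), so dose and ratio cannot be told apart here either.

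Other genes of peroxisomes and related functions were read from a list of 50, with 39 present under those names and 35 tested. This list was chosen with earlier results of these data known, so its called shares are not independent of them. At 500 µM and 24 h, 13 of 35 rose and 1 fell (40% called, against 2.86% of all tested genes). With 5000 µM at 24 h, 10 rose and 9 fell (54.3% against 38.1%). At 48 h, 16 rose and 5 fell at 500 µM (60% against 42.6%), and 17 rose and 5 fell at 5000 µM (62.9% against 32.6%). Ehhadh, the bifunctional enzyme of fatty acid beta-oxidation, was higher by 1.03 ± 0.12 (SE), 1.97 ± 0.12 and 1.81 ± 0.12 at 500 µM and 24 h, 500 µM and 48 h, and 5000 µM and 48 h, and was -0.10 and not called at 5000 µM and 24 h. Acsl1, which activates fatty acids, rose by 0.69, 1.00 and 0.96 in them. Acot12, a cytosolic acetyl-CoA thioesterase, rose by 0.70 and Ech1, a dienoyl-CoA isomerase, by 0.54 at 500 µM and 24 h. With the high dose at 24 h, Hsdl2 rose by 0.95, the carnitine transferase Crot by 0.75, Acot12 by 0.64 and the division factor Pex11a by 0.61. Hao1 and Hao2, oxidases of hydroxy acids, were lower there, at -2.20 ± 0.13 (SE) and -2.10 ± 0.12, and Baat, which conjugates bile acids, fell by 0.92, and Xdh by 0.89. At 48 h the falls of Hao1 and Hao2 at 5000 µM were smaller, at 0.73 and 0.62, with differences between the times of 1.47 and 1.48. Xdh fell by 0.55 and Pmvk, of the mevalonate pathway, by 0.51 there, while Acot12 rose by 0.86 and Pex11a and Crot by 0.79 each. At 500 µM and 48 h the metalloprotease Ide rose by 0.70 and the acetyltransferase Crat by 0.65, and Pmvk fell by 0.38, Dnm1l by 0.34, Hao2 by 0.32 and Prdx5 by 0.25. With the covariate, Crat (0.69, adjusted p = 0.00402) remained called at 500 µM and 48 h, Ide (0.35, adjusted p = 0.0694) did not, and none of the 35 genes was called lower in limma, with 2 lower at an unadjusted p under 0.05.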

How the data were processed

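The authors deposited 1 signal intensity per probe set and array, on a linear scale, and per the submitters' processing notes these come from MAS5, of unstated version. Trimmed means (2% from each end) of 1500.55 to 1500.66 on all 30 arrays show that the deposited intensities had been scaled to one target, so they were only log2-transformed. Array number limits the precision. Of 31099 probe sets, 57 were controls, 20826 had 1 gene symbol, 436 several and 9780 none in the platform annotation used. Of those with 1 symbol, 20758 were matched by Entrez identifier to a RefSeq gene, whose symbol was used. Pearson correlations within groups were 0.9404 to 0.9565, so no array was taken for a duplicate.

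Each gene was read from the probe set with the highest mean log2 signal, and the brightest 60% (8531 genes) were tested. All arrays entered one linear model of 6 group means in limma 3.58.1 (R 4.3.3; 24 residual and 7.58 prior degrees of freedom, intensity trend), with Benjamini-Hochberg adjustment over all tested genes. The code was tested on simulated data. The 3'/5' ratio was compared by an exact two-sided permutation test over arrays, adjusted over 5 comparisons. All arrays are listed for members called with a difference of at least 0.5 and no overlap in a comparison with vehicle, and for a few others chosen after their values were seen (Pex19, Pxmp2 and part of Mlycd). Of the companion list, up to 4 rises and 4 falls per comparison with vehicle were named. Alternatives were median centring (over tested genes), quantile normalization, no filter, the brightest 40%, an offset of 64, the mean of all probe sets, the ratio as covariate, a fit of only the groups compared, and leaving out each array; a block of the runs of serial numbers in the titles was added after seeing the data. The members and lists were chosen with earlier results of these data known. Of the 50 companion genes, 11 were not analysed here.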

Additional observations from a re-analysis of the deposited data

Results flagged for a closer look

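On 1 array each, 2 members stood apart from the other 4 arrays of their group, by Dixon's criterion for 5 samples, among 48 sets of 5 signals examined (8 members in 6 groups). Hacl1 read 9907 on 1 vehicle array at 48 h, where the others lay between 8028 and 8434. Acot4 read 2114 on 1 vehicle array at 24 h, where the others lay between 3507 and 3964. Chance alone puts about 1 in 20 such groups past the criterion.

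The effect of 5000 µM differed between the times for 10 of 36 tested members (27.8%), where 16.4% of all tested genes were called. The effect at 48 h minus that at 24 h was 1.17 for Acox2 (from -1.45 to -0.28), 1.04 for Hacl1 (from -0.18 to 0.86), 0.67 for Ephx2 (from -0.16 to 0.51) and 0.55 for Uox (from -0.55 to 0.00). It was 0.45 for Acot8, 0.39 for Phyh, 0.37 for Pxmp2, 0.35 for Pex5, 0.24 for Lonp2 and -0.36 for Nudt19. The estimates for Hacl1, Pex5, Ephx2 and Nudt19 had opposite signs at the 2 times.

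The effect of 500 µM differed between the times for 9 of 36 tested members (25%), where 36.6% of all tested genes were called. The difference was 0.75 for Pex5, 0.66 for Pex6, 0.64 for Acox2, 0.17 for Lonp2, -0.23 for Nudt7, -0.28 for Scp2, -0.30 for Pex2, -0.33 for Slc25a17 and -0.34 for Pecr. The 3'/5' ratio of the 500 µM arrays was below vehicle by 0.16 (log2) at 24 h, with overlap, and above it by 0.62 at 48 h, without overlap. With the ratio as a covariate none of the 9 was called in limma (adjusted p from 0.0769 for Pex5 to 0.914 for Pecr), and 2 members had an unadjusted p under 0.05.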

How the results depend on the processing

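Of the 57 calls of members in the comparisons of a dose with vehicle, 51 were kept under median centring, under quantile normalization, without the filter and for averaged probe sets, 57 with an offset of 64, and 49 when only the groups compared were fitted, none with a change of sign. Of the 56 whose genes were among the brightest 40%, 56 were kept there. After adding the 3'/5' ratio to the model 41 were kept, 14 were lost, and Pecr (0.05) and Slc25a17 (0.03) changed sign at 500 µM and 48 h. The count of members called at 500 µM and 24 h was 4 when only the groups compared were fitted. With the ratio it was 8 at 500 µM and 48 h, 2 for time in vehicle, 5 between the doses at 48 h and 0 for the 500 µM difference between times (2 at an unadjusted p under 0.05 in limma). For 5000 µM and 48 h, 17 were called with and without it. Median centring moved the median of all genes in the 500 µM difference from 0.04 to -0.09. Leaving out 1 array gave 6 to 9, 12 to 16, 13 to 17 and 14 to 18 calls (500 and 5000 µM at 24 h, then at 48 h), 6 to 10 for time, 5 to 9 and 10 to 11 for the differences of 500 and 5000 µM, and 12 to 14 and 14 to 16 between the doses. Of the 57 calls, 42 held whichever array was left out. Those lost with some arrays included Pxmp4, Pex16 and Pex19 at 500 µM and 24 h, Hacl1 at 5000 µM and 24 h and Acox2 at 5000 µM and 48 h. The labels give no replicate numbers, but the serial numbers in the titles fall into 5 runs of 6, each with 1 array of every group. Deviations from the group means correlated between -0.32 and 0.43 over the 75 pairs of arrays within a run (31 pairs over 0.1). The median was 0.06 within runs and -0.02 between runs. Of the 5 runs, 19 of 30 arrays were closest on average to their own, so arrays of a run were somewhat alike. The labels do not say what a run is, and the main fit did not use the runs. With the runs as a replicate block, an alternative chosen after seeing the data, 10, 15, 17 and 18 members were called for 500 and 5000 µM at 24 h and then at 48 h, and all 57 calls were kept. Shares of all tested genes are not given for the runs, for median centring or for arrays left out.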

Other observations

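Ppara, the gene of the receptor that raises many peroxisomal enzymes, lay below the tested range on these arrays. Its signals at 24 h were 36.8 to 209.3 in vehicle, 34.8 to 248.7 at 500 µM and 217.6 to 387.9 at 5000 µM, and at 48 h 47.7 to 384.4, 82.7 to 318.7 and 44.7 to 503.6. The spread within groups at these low signals was wide, and no test result for Ppara is given here.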
